A study of Mus musculus with 96 samples.

Results

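The genes described here are 10 genes of DNA replication, Mcm2, Mcm3, Mcm4, Mcm5, Mcm6, Mcm7, Mcm10, Pcna, Tyms and Rrm2, taken by name from the 23955 genes of the expression table and followed across 96 single cells. The cells are granulocyte-monocyte progenitors (GMP) from the crushed hindlimb bones of C57BL/6 mice of 1 genotype, ThPOK-/-, which lack ThPOK, a zinc finger transcription factor encoded by Zbtb7b. They were enriched for CD117, sorted by flow cytometry and separated on the Fluidigm C1 microfluidic system. Every group below carries the same genotype, strain and sort, so none is a wild-type control, and no age, promoter or animal is named. The 96 cells were therefore treated as 1 sample: differences between cells carry no p-value and are set against the spread over cells.

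The authors gave state names to 69 cells, which fall into proNeu-1 (12 cells), IG2 (31 cells) and Multi-Lin-1 (26 cells), while 27 cells have no state. The origin of the state names is not given, and if replication genes entered that step the differences below are in part built in. Cell names carry a number, 078 or 079, of unstated meaning, with 48 cells each. Detection means a TPM (transcript abundance scaled for transcript length and to a fixed sum per cell) of 1 or more. The number of genes detected per cell, counted without the 10 genes, had a median of 4117.5 in proNeu-1, 3933 in IG2, 2610 in cells with no state and 2943.5 in Multi-Lin-1, and ran between 1017 and 5194 over all cells. TPM keeps no read depth, so genes detected stands in for it, and lower depth and less RNA per cell cannot be told apart. The GMP label was checked over all cells against a list named for the primary granule. Mpo, myeloperoxidase, was detected in all 96 cells, and 9 of 12 genes of that list in at least 50% of cells. The mean log2(TPM + 1) of the list was 10.10 in proNeu-1 and 8.25 in IG2. It was only 3.63 in cells with no state and 3.92 in Multi-Lin-1, so the check says less about those cells.

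Before a cell copies its DNA, the MCM2-7 proteins are loaded on replication origins as a ring of different subunits, and this ring becomes the replicative helicase. Mcm10 helps to activate the helicase, PCNA is the sliding clamp that holds DNA polymerases on the template, thymidylate synthase (Tyms) makes the thymidine nucleotide, and Rrm2 is the small subunit of ribonucleotide reductase, which makes deoxynucleotides. Many genes of this kind are transcribed at the G1/S transition under E2F transcription factors, and GMP are a dividing progenitor population of the marrow.

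On GRCm38 (GENCODE gene bounds) the ring subunits lie on several chromosomes: Mcm2 at chr6:88883474-88898780 (minus strand), Mcm3 at chr1:20802968-20820312 (minus strand), Mcm4 at chr16:15623897-15637400 (minus strand), Mcm5 at chr8:75109569-75128439 (plus strand), Mcm6 at chr1:128331590-128359664 (minus strand) and Mcm7 at chr5:138164583-138172422 (minus strand). The other genes are Mcm10 at chr2:4989714-5012791 (minus strand), Pcna at chr2:132249162-132253314 (minus strand), Tyms at chr5:30058202-30073617 (minus strand) and Rrm2 at chr12:24708241-24714146 (plus strand). No pair of the 10 genes overlaps, and values are per gene.

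To describe the sequence around their start sites, promoters were taken from RefSeq (GRCm38.p6, 250 bases before to 50 after an annotated start). They were searched on both strands for 4 E2F-type sequences of 8 bases, TTTCCCGC, TTTGGCGC, TTTCGCGC and TTTGCCGC. A promoter entry was matched for 9 of the 10 genes. The 4 genes whose window held a match are printed below with matches in capitals, as read 5′ to 3′ toward the gene, beside Tyms, whose window held neither a match nor a CCAAT sequence.
Mcm3, chr1:20820263-20820562, minus strand: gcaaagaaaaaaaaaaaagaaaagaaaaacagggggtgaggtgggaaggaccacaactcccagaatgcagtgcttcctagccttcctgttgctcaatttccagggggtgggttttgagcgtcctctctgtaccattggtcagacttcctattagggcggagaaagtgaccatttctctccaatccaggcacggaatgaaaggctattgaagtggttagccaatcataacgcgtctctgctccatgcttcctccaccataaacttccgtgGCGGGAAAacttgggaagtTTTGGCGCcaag
Mcm5, chr8:75109259-75109558, plus strand: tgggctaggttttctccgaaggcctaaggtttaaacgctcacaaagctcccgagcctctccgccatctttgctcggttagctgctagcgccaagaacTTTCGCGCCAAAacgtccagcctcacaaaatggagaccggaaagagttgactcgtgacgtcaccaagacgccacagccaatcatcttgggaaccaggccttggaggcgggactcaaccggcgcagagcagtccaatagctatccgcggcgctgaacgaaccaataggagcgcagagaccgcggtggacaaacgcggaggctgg
Mcm6, chr1:128359656-128359955, minus strand: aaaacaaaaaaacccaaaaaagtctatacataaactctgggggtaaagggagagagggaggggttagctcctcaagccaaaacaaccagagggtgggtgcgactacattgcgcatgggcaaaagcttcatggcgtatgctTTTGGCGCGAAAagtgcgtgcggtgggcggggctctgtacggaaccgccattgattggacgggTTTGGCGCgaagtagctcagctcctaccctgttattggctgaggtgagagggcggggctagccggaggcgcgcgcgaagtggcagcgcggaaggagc
Mcm7, chr5:138171834-138172133, minus strand: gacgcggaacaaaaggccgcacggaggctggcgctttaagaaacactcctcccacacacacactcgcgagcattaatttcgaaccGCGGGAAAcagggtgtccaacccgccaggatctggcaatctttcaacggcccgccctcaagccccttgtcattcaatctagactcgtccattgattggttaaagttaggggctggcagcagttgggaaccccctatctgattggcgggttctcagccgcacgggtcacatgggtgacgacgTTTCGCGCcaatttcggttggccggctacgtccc
Tyms, chr5:30073576-30073875, minus strand: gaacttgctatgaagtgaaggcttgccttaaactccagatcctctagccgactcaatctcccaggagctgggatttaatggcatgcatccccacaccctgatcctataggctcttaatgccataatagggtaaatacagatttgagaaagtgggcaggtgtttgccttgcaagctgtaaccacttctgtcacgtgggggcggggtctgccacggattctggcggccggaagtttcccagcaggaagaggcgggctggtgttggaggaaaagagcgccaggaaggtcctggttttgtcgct
The Mcm3 matches began 19 and 38 bases after the start, and those of Mcm7 began at -165 and 16. A further Mcm7 window, chr5:138171217-138171516, held no match. In Mcm6 the matches at -110 and -106 overlap and a further match began at -47, and in Mcm5 the matches at -153 and -149 overlap. Matches were thus found in 4 of 9 genes (44.4%), against 744 of 32851 promoters of the same length in the table (2.26%), or 704 of 27025 genes with a promoter entry. Among other replication genes 26 of 69 held a match (37.7%), and among mitosis genes 1 of 13 (7.69%). The lists of other replication genes are wide here and also hold G1/S regulators and genes of chromatin assembly at forks. CCAAT on either strand was in 8 of the 9 genes (88.9%), 37 of 69 other replication genes (53.6%) and 11 of 13 mitosis genes (84.6%), against 41.1% of those 27025 genes. A match is a run of letters, not a binding site, and Mcm2, Mcm10, Pcna and Rrm2 held none of these 4 sequences in this window.

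All 10 genes were detected in at least 10% of the 96 cells, the level that 8044 genes reached. Detection ran from 24% of cells for Mcm10 (23 of 96, exact Clopper-Pearson 95% interval 15.8% to 33.7%) to 94.8% for Tyms (91 of 96, 88.3% to 98.3%). The other shares were 59.4% for Mcm2, 61.5% for Rrm2, 66.7% for Mcm5, 70.8% for both Mcm3 and Mcm4, 75% for Mcm7, 77.1% for Pcna and 81.2% for Mcm6. The median share over the 10 genes was 70.8%, against 31.2% over the 8044 genes. Intervals cover the counting of cells in this 1 sample only, and neighbouring genes in this order have overlapping intervals, apart from Mcm10, whose interval lies below all others. At a stricter level of 30 TPM the order differed: Tyms was then in 49 of 96 cells, below Mcm6 with 65 cells, Pcna with 60, Mcm3 with 53 and Mcm7 with 51. Tyms was thus detected in the most cells but at low level, with the lowest median of the 10 genes where detected, 37.9 TPM, against 438 TPM for Pcna, the highest of the 10, and 276 TPM for Rrm2.

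**Figure D1:**
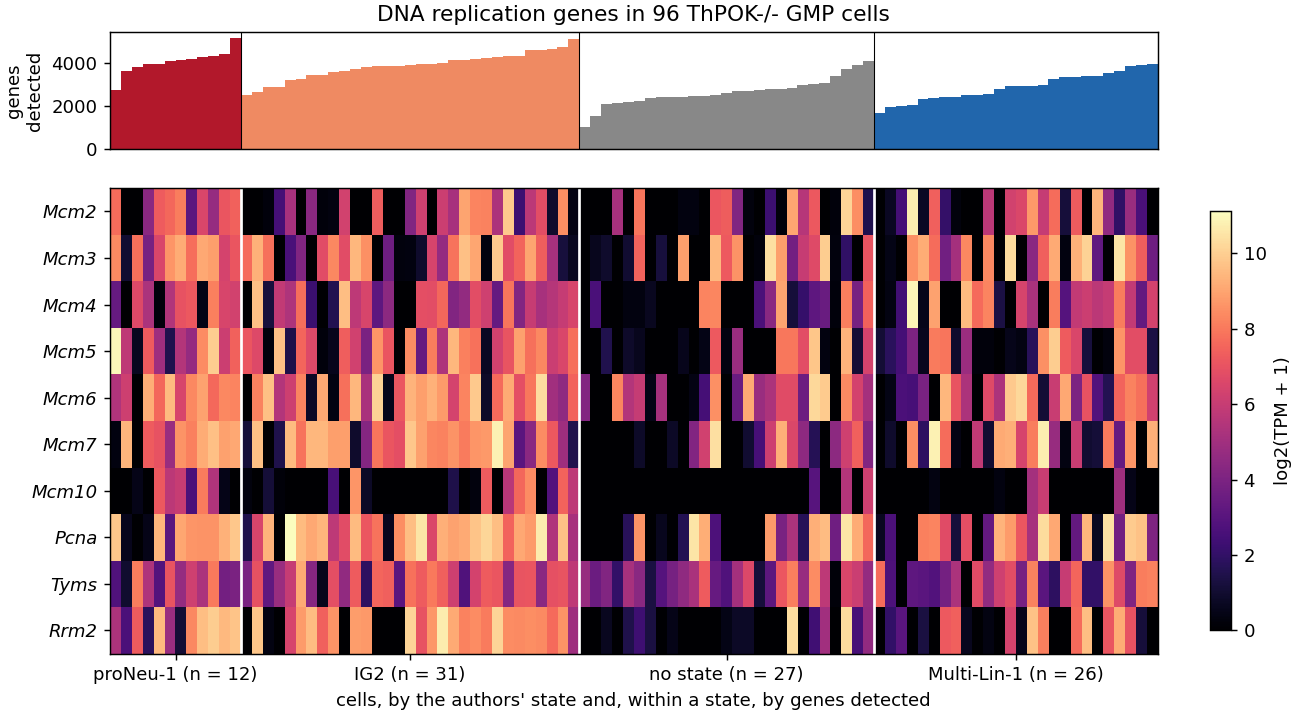
Levels of the 10 genes, as log2(TPM + 1), in each of the 96 cells (columns, grouped by state in the order proNeu-1, IG2, no state and Multi-Lin-1, and ordered within a state by genes detected, shown above as bars). The Tyms row is coloured in most cells (detected in 91) and the Mcm10 row is black in most (detected in 23).

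Most cells held many of the 10 genes. The number detected per cell had a median of 9 in proNeu-1, 8 in IG2, 5 in cells with no state and 7 in Multi-Lin-1. All 10 were detected in 4 of 12 proNeu-1 cells, 5 of 31 IG2 cells, 3 of 27 cells with no state and 2 of 26 Multi-Lin-1 cells. At the low end, 3 or fewer were detected in 0 proNeu-1 cells, 0 IG2 cells, 12 cells with no state (44.4%) and 2 Multi-Lin-1 cells (7.69%). No cell lacked all 10. The cells with no state therefore span the widest range, from 1 to 10 genes, and hold 12 of the 14 cells at the low end.

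The mean log2(TPM + 1) of the 10 genes, called the replication score here, was 5.82 ± 1.65 in proNeu-1 (SD, n = 12 cells), 5.54 ± 1.52 in IG2 (n = 31 cells), 2.94 ± 2.11 in cells with no state (n = 27 cells) and 4.11 ± 1.69 in Multi-Lin-1 (n = 26 cells). Over single cells the score ran from 2.66 to 8.09 in proNeu-1, from 2.16 to 7.55 in IG2, from 0.38 to 7.69 in cells with no state and from 0.95 to 6.46 in Multi-Lin-1. All 4 groups overlap.

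The subunits of the helicase ring were next described gene by gene. Mcm7 had a lowest, median and highest log2(TPM + 1) of 0, 8.40 and 9.63 in proNeu-1, 0, 8.22 and 10.80 in IG2, 0, 1 and 10.39 in cells with no state, and 0, 5.28 and 10.81 in Multi-Lin-1. Its median was thus 341 TPM in proNeu-1 and 297 TPM in IG2 but 1 TPM in cells with no state, while its highest cells were alike in IG2, no state and Multi-Lin-1. Mcm4 had 0, 5.87 and 8.19 in proNeu-1, 0, 5.52 and 9.64 in IG2, 0, 0.68 and 8.995 in cells with no state, and 0, 5.78 and 10.92 in Multi-Lin-1. The medians of the 3 named states lie close together and only cells with no state were low. Mcm5 had 0.69, 5.97 and 10.95 in proNeu-1, 0, 7.03 and 9.65 in IG2, 0, 0.48 and 9.78 in cells with no state, and 0, 1.79 and 9.94 in Multi-Lin-1. For Mcm5 the Multi-Lin-1 median, 2.46 TPM, was also low, although 17 of 26 of those cells were at 1 TPM or more.

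Mcm3 was detected in 12 of 12 proNeu-1 cells, 23 of 31 IG2 cells, 15 of 27 cells with no state and 18 of 26 Multi-Lin-1 cells. Mcm6, the subunit detected in the most cells, was found in 11 of 12, 26 of 31, 19 of 27 and 22 of 26 cells in the same order. Mcm2, detected in the fewest, was found in 10 of 12 proNeu-1 cells, 18 of 31 IG2 cells, 12 of 27 cells with no state and 17 of 26 Multi-Lin-1 cells. Mcm2 (58.1% in IG2 and 65.4% in Multi-Lin-1) and Mcm6 (83.9% and 84.6%) were the ring subunits with a lower share in IG2, and the exact intervals overlap for both.

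Because the ring needs all of its subunits, joint detection was counted. All 6 genes Mcm2 to Mcm7 were detected in 7 of 12 proNeu-1 cells (58.3%, exact 95% interval 27.7% to 84.8%), 12 of 31 IG2 cells (38.7%, 21.9% to 57.8%), 6 of 27 cells with no state (22.2%, 8.62% to 42.3%) and 6 of 26 Multi-Lin-1 cells (23.1%, 8.97% to 43.6%). Over all cells this was 31 of 96 (32.3%, 23.1% to 42.6%). At 5 of the 6 genes there were a further 22 cells, and 2 cells, both with no state, had 0 of the 6. The intervals of the 4 groups overlap.

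**Figure D2:**
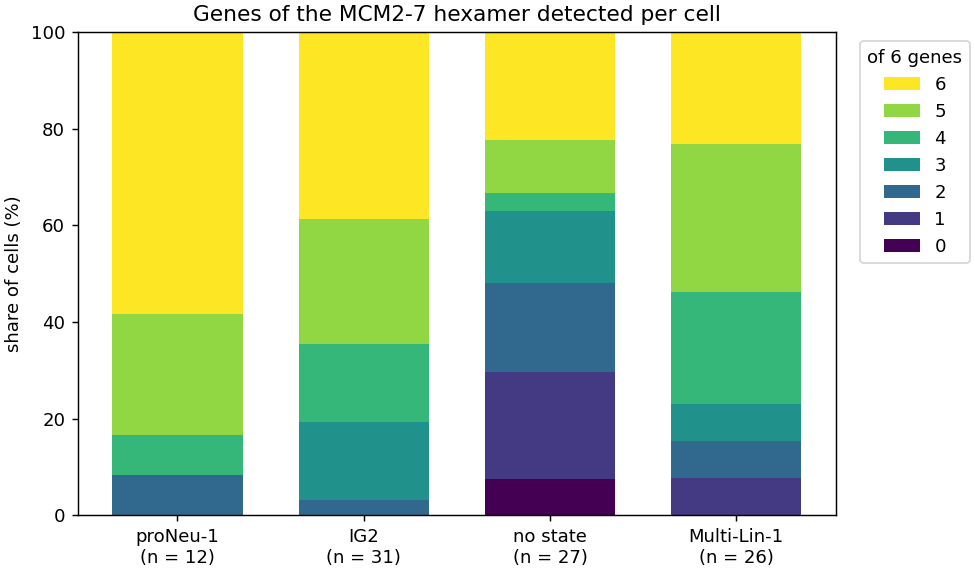
Share of cells (%) of each state by the number of the 6 genes Mcm2 to Mcm7 detected in the cell. The share with all 6 was 58.3% in proNeu-1, 38.7% in IG2, 22.2% in cells with no state and 23.1% in Multi-Lin-1.

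Mcm10, the helicase activator, was listed at 0 in 64 of 96 cells. It was detected in 6 of 12 proNeu-1 cells (50%, exact 95% interval 21.1% to 78.9%), 11 of 31 IG2 cells (35.5%, 19.2% to 54.6%), 3 of 27 cells with no state (11.1%, 2.35% to 29.2%) and 3 of 26 Multi-Lin-1 cells (11.5%, 2.45% to 30.2%). Its highest values were 263 TPM in proNeu-1, 399 TPM in IG2, 74.7 TPM in cells with no state and 65.5 TPM in Multi-Lin-1. Mcm10 was the member closest to absence, and the intervals of all 4 groups overlap.

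Pcna, the sliding clamp, had a lowest, median and highest log2(TPM + 1) of 0, 8.64 and 9.85 in proNeu-1, 0, 9.09 and 11.10 in IG2, 0, 1.77 and 10.51 in cells with no state, and 0, 5.96 and 10.45 in Multi-Lin-1. It was detected in 9 of 12 proNeu-1 cells (75%), 29 of 31 IG2 cells (93.5%), 16 of 27 cells with no state (59.3%) and 20 of 26 Multi-Lin-1 cells (76.9%). Pcna was high in nearly every IG2 cell, and proNeu-1 held 3 cells under 1 TPM among cells of high level. RefSeq lists pseudogenes of Pcna and Tyms, so reads of these genes could be shared between copies and their values are uncertain. The Tyms pseudogene, Tyms-ps, has expression values of its own and was detected in 7.29% of cells, while no Pcna pseudogene has any.

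Rrm2 had group medians farther apart than any other of the 10 genes. Its lowest, median and highest log2(TPM + 1) were 1.10, 7.81 and 9.96 in proNeu-1, 0, 8.40 and 10.71 in IG2, 0, 0.46 and 10.34 in cells with no state, and 0, 1.26 and 9.70 in Multi-Lin-1. It was detected in 12 of 12 proNeu-1 cells (100%, exact 95% interval 73.5% to 100%), 24 of 31 IG2 cells (77.4%, 58.9% to 90.4%), 9 of 27 cells with no state (33.3%, 16.5% to 54%) and 14 of 26 Multi-Lin-1 cells (53.8%, 33.4% to 73.4%). The intervals of proNeu-1 and IG2 lie above that of cells with no state, while that of Multi-Lin-1 overlaps both IG2 and cells with no state. Where detected, Rrm2 had a median of 4.74 TPM in cells with no state, so most of its detections there were close to the detection level.

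Tyms stood apart from Rrm2 although both supply DNA precursors. Its lowest, median and highest log2(TPM + 1) were 0.96, 4.98 and 8.07 in proNeu-1, 0.58, 6.89 and 9.12 in IG2, 0.21, 4.65 and 8.45 in cells with no state, and 0, 4.37 and 8.61 in Multi-Lin-1. Its detection was 91.7%, 96.8%, 96.3% and 92.3% of cells in the same order. Tyms was the only one of the 10 genes detected in nearly all cells with no state.

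**Figure D3:**
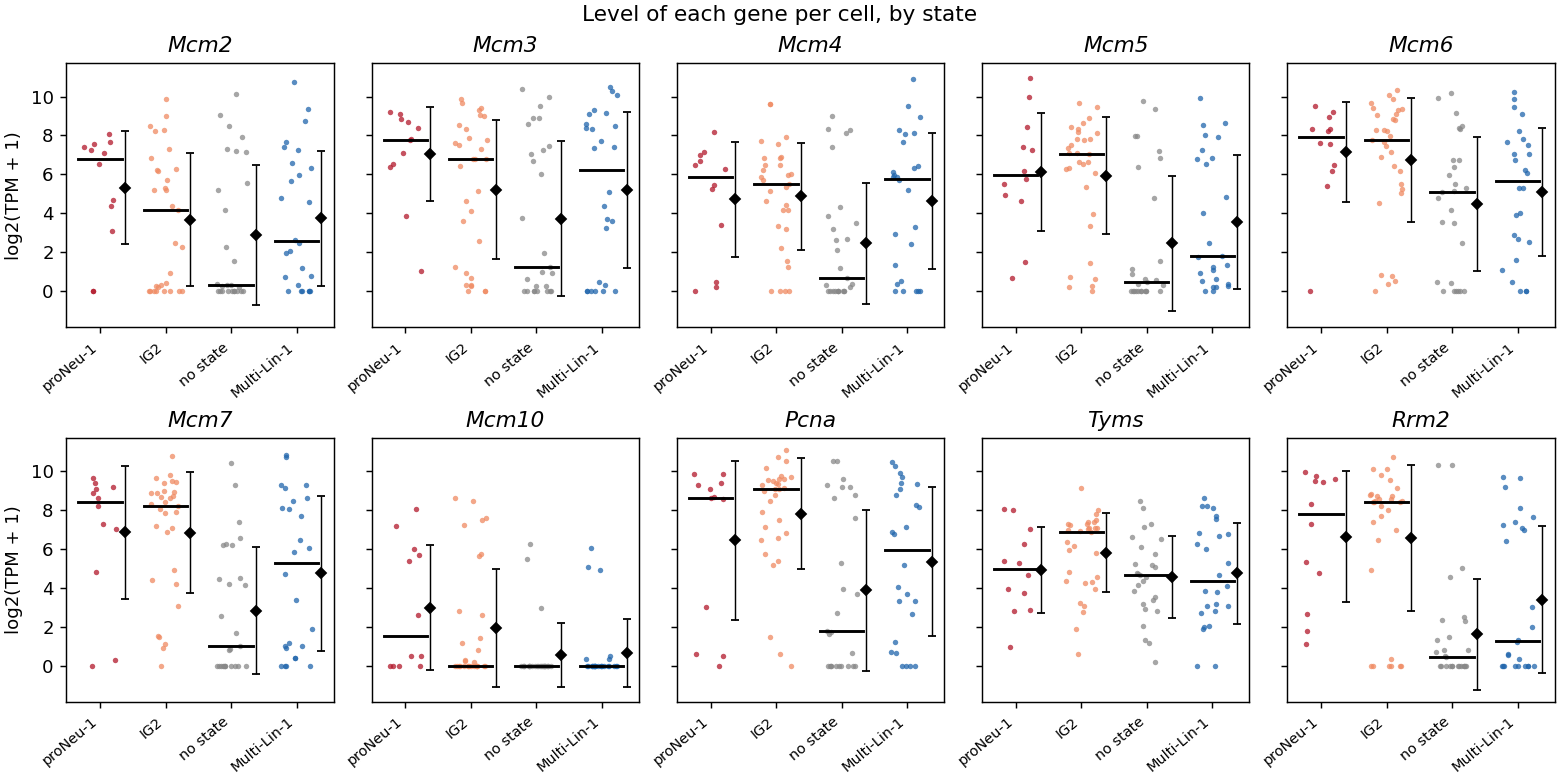
Level of each of the 10 genes, as log2(TPM + 1), with 1 point per cell, the group median as a horizontal bar and the mean ± SD over cells as a diamond with whiskers, for proNeu-1, IG2, no state and Multi-Lin-1 from left to right. For Rrm2 the medians were 7.81 in proNeu-1, 8.40 in IG2, 0.46 in cells with no state and 1.26 in Multi-Lin-1, and the points of the groups overlap for every gene.

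The replication score was next set against genes detected per cell. Over the 96 cells their Spearman rho was 0.71 and Pearson r 0.70. A cell with 1000 more genes detected had a score 1.69 higher on the log2 scale in a linear fit, which took up 48.8% of the variance of the score. All points come from the same sample, and in each cell the score and genes detected rest on the depth of that cell, so this is a description. Within states rho was 0.89 in proNeu-1 (n = 12 cells), 0.53 in IG2 (n = 31 cells), 0.70 in cells with no state (n = 27 cells) and 0.48 in Multi-Lin-1 (n = 26 cells). The relation was positive in all 4 groups and in cells of either label number (rho 0.67 with 078 and 0.75 with 079).

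Each of the 10 genes had a positive rho with genes detected, between 0.23 for Mcm3 and 0.56 for Rrm2. The median over the 10 was 0.45, against 0.23 over the 8044 genes, of which 90.9% were above 0. The value was 0.36 for 79 other replication genes and 0.40 for 15 mitosis genes. These sets were not matched for the share of cells in which their genes were detected. Mcm10 (0.52), Pcna (0.50) and Mcm7 (0.48) came next after Rrm2, and Mcm2 (0.34) and Tyms (0.34) next above Mcm3. Mcm3 thus lies at the middle of all genes in this respect, while Rrm2 exceeds 99.3% of them. These values hold differences between states as well as within them. Within IG2 rho ran from -0.03 for Mcm7 to 0.52 for Mcm2, with 0.16 for Rrm2. Within proNeu-1 it was 0.57 for Mcm7 and 0.69 for Rrm2, and within cells with no state 0.62 and 0.39. Within Multi-Lin-1 it was 0.22 for Mcm7 and 0.20 for Rrm2.

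**Figure D4:**
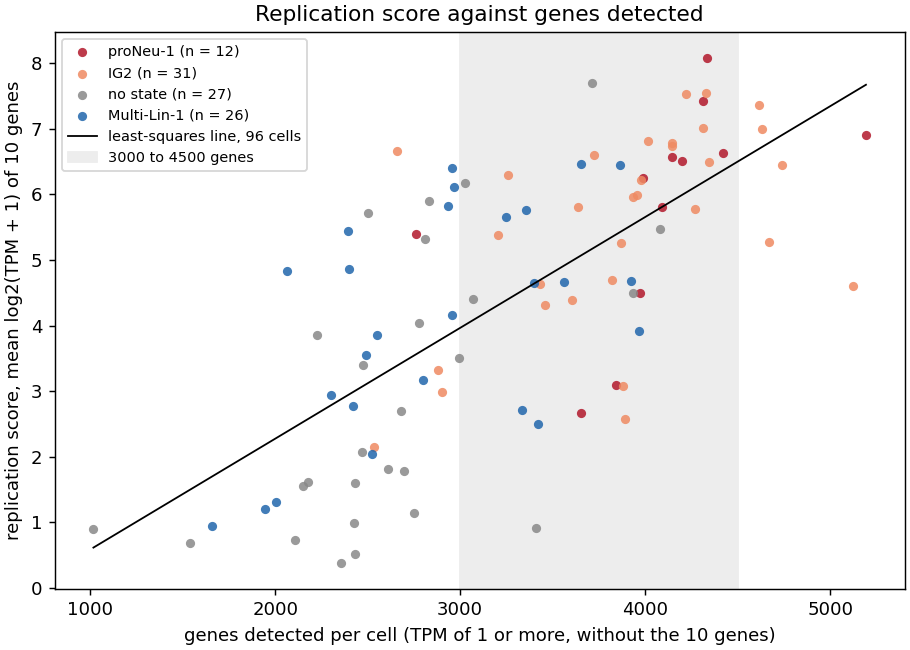
Replication score (mean log2(TPM + 1) of the 10 genes) against genes detected per cell, with 1 point per cell, coloured by state, the least-squares line over all cells and the window of 3000 to 4500 genes shaded. Over 96 cells rho was 0.71, and cells with no state and Multi-Lin-1 cells fill the left of the plot.

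Cells were then taken by genes detected. Among 21 cells with under 2500 genes a median of 4 of the 10 were detected, among 33 cells with 2500 to 3500 genes 7, and among 42 cells with at least 3500 genes 9. Mcm10 was in 0 of 21 cells with under 2500 genes, which allows a share of up to about 14.3%. That bound (3 cells in 21) is an approximation and not an exact interval. Mcm10 was in 12.1% of the middle cells and in 45.2% of the cells with most genes. Rrm2 was in 38.1%, 42.4% and 88.1% of cells in the same order, and Tyms in 90.5%, 93.9% and 97.6%. Mcm7 was in 28.6%, 81.8% and 92.9% of cells and Mcm4 in 28.6%, 75.8% and 88.1%, while Tyms was near the highest possible share in all 3 sets of cells, which leaves little room for it to differ. Both groups with cells under 2500 genes can be compared there: 12 cells with no state had a median of 3 of the 10 genes and a score of 1.52 ± 1.11, and 9 Multi-Lin-1 cells had 5 genes and a score of 3.10 ± 1.71 (SD over cells). At 2500 to 3500 genes, 12 cells with no state had a median of 6.5 and a score of 3.62 ± 1.93. There 12 Multi-Lin-1 cells had 7 and 4.41 ± 1.55. At 3500 or more genes the order turned, on few cells. The values were 10 and 5.89 ± 1.64 in 3 cells with no state and 8 and 5.23 ± 1.16 in 5 Multi-Lin-1 cells.

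Differences between states were called by size, at 1 or more in mean log2(TPM + 1), because there is 1 sample. In none of the 4 comparisons did any of the 10 genes differ by more than the SD over cells. That SD is the square root of the plain mean of both group variances, not weighted by cell number. By this measure the largest differences were 0.90 SD, for Rrm2 and Mcm10 between proNeu-1 and Multi-Lin-1. Weighting by cell number was not used, and values this close to 1 could pass it under that choice. Where regression on genes detected is given below, it was fitted per gene over all cells with no term for state. Genes detected differs between states, so the fit can also take up differences between states.

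Between proNeu-1 and IG2, 3 of the 10 genes were higher in proNeu-1 and 1 was lower, against 13.6% of the 8044 genes higher and 10.2% lower. Mcm3 averaged 7.06 ± 2.42 in proNeu-1 and 5.22 ± 3.57 in IG2 (SD, n = 12 and 31 cells), a difference of 1.83. Mcm2 differed by 1.66 and Mcm10 by 1.04. Pcna was the lower gene, with 6.45 ± 4.09 in proNeu-1 and 7.82 ± 2.83 in IG2, a difference of -1.37. The score differed by 0.28, with -0.90 among cells numbered 078 (6 and 16 cells) and 1.51 among cells numbered 079 (6 and 15 cells). The sign of the score difference therefore depends on the label number, and it was -0.056 after regression on genes detected.

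Between proNeu-1 and Multi-Lin-1, 8 of the 10 genes were higher in proNeu-1 and 0 lower, against 35.2% of the 8044 genes higher and 5% lower. Rrm2 differed most, by 3.23, with a mean of 6.63 ± 3.36 over 12 proNeu-1 cells against 3.40 ± 3.79 over 26 Multi-Lin-1 cells (SD), followed by Mcm5 with 2.55 and Mcm10 with 2.33. Mcm4 (0.10) and Tyms (0.17) were the genes under 1. The median difference of the 10 genes was 1.95, against 0.52 over the 8044 genes. The score differed by 1.71, and by 0.38 among cells numbered 078 and 2.82 among cells numbered 079. After regression on genes detected 0 of the 10 genes were higher and 2 lower, against 12.6% of genes in either direction, and the score difference was -0.30. Those 2 genes were Pcna (-1.69) and Mcm4 (-1.55).

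Between IG2 and Multi-Lin-1, 7 of the 10 genes were higher in IG2 and 0 lower, against 31.1% of the 8044 genes higher and 2.54% lower. Rrm2 averaged 6.58 ± 3.74 in IG2 and 3.40 ± 3.79 in Multi-Lin-1 (SD, n = 31 and 26 cells), a difference of 3.17, and Pcna differed by 2.48, Mcm5 by 2.37 and Mcm7 by 2.09. Mcm2, Mcm3 and Mcm4 differed by -0.08, 0.01 and 0.25, so the ring subunits were split between those higher in IG2 (Mcm5, Mcm6 and Mcm7) and those at like levels. The score differed by 1.43, with 1.27 among cells numbered 078 and 1.31 among cells numbered 079. After regression on genes detected 0 genes were higher and 3 lower, against 6.92% and 5.57% of genes, and the score difference was -0.24. The 3 lower genes were Mcm2 (-1.33), Mcm4 (-1.12) and Mcm3 (-1.03).

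Another account of genes detected used only the 48 cells with 3000 to 4500 genes. In them the score was 5.75 ± 1.79 in 10 proNeu-1 cells, 5.72 ± 1.33 in 22 IG2 cells, 4.86 ± 2.28 in 6 cells with no state and 4.75 ± 1.40 in 10 Multi-Lin-1 cells (SD over cells). Against Multi-Lin-1, 4 of the 10 genes were higher and 1 lower in proNeu-1 (27.2% and 14.6% of all genes), and 4 were higher and 2 lower in IG2 (21.7% and 11.7%). Mcm7 differed by 3.03 between proNeu-1 and Multi-Lin-1 and by 3.61 between IG2 and Multi-Lin-1 in these cells, and Rrm2 by 2.27 and 2.90. Gene number still differed between the groups in this window, with a mean of 4096 genes in proNeu-1, 3883 in IG2, 3538 in cells with no state and 3572 in Multi-Lin-1. After regression over all cells the differences were -0.45 and -0.04 for Mcm7 and -0.05 and 0.45 for Rrm2.

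Between cells with no state and Multi-Lin-1 cells, 0 of the 10 genes were higher and 6 lower in cells with no state, against 5.21% of the 8044 genes higher and 12% lower. Mcm4 averaged 2.45 ± 3.13 in cells with no state and 4.62 ± 3.50 in Multi-Lin-1 (SD, n = 27 and 26 cells), a difference of -2.16. Mcm7 differed by -1.92, Rrm2 by -1.79, Mcm3 by -1.48, Pcna by -1.47 and Mcm5 by -1.10. After regression 4 remained lower, Mcm4, Mcm7, Mcm3 and Rrm2, and 0 were higher, against 8.29% and 7.45% of genes, and the score difference was -0.78 in place of -1.17. The score difference was -2.08 among cells numbered 078 and -0.47 among cells numbered 079. In the window of 3000 to 4500 genes it was 0.11, with 2 genes higher and 2 lower (19.7% and 20.2% of genes), on 6 and 10 cells.

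**Figure D5:**
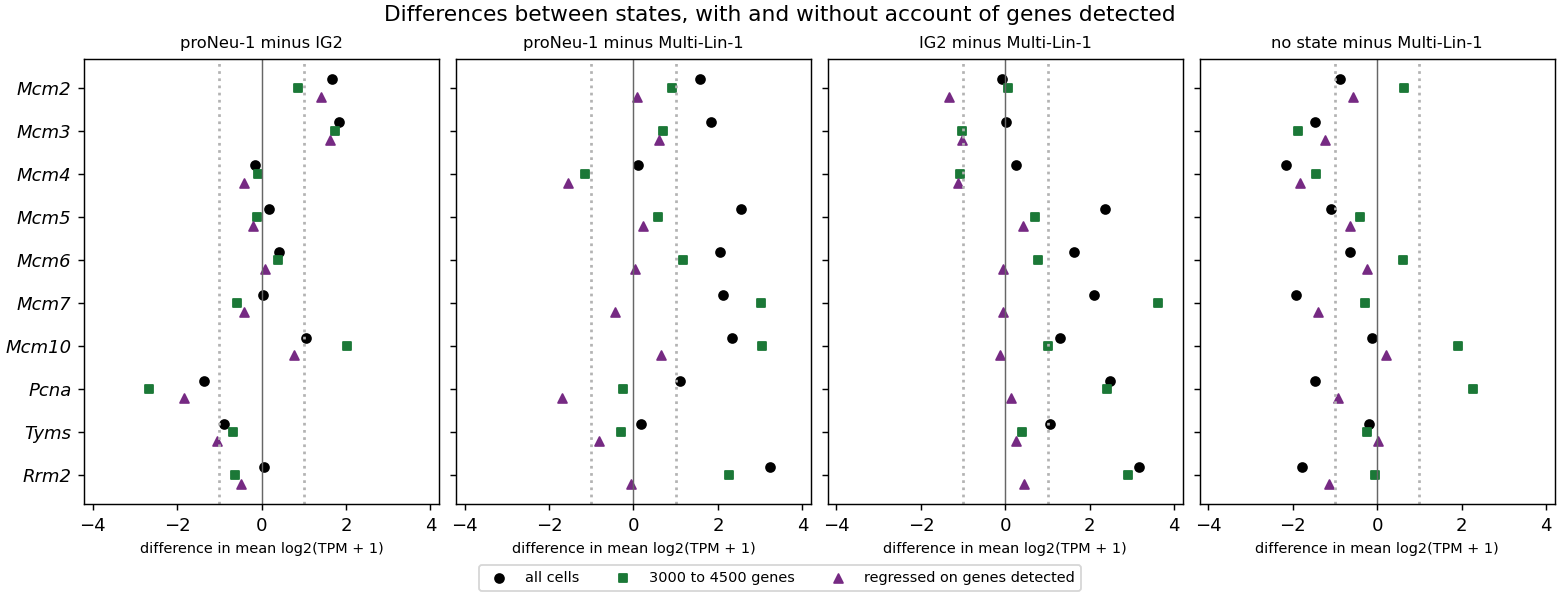
Difference in mean log2(TPM + 1) of each of the 10 genes in 4 comparisons of states, over all cells (circles), over cells with 3000 to 4500 genes (squares) and after regression on genes detected (triangles), with dotted lines at a difference of 1. Against Multi-Lin-1, 8 circles lie above 1 for proNeu-1 and 7 for IG2, and 0 triangles do.

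Markers of other cell types moved with these comparisons. The mean log2(TPM + 1) of 12 erythroid and megakaryocyte genes ran from 0 to 0.63 in proNeu-1 cells, from 0 to 2.08 in IG2 cells, from 0 to 4.57 in cells with no state and from 0.05 to 2.91 in Multi-Lin-1 cells. That of 8 mast cell and basophil genes ran from 0.77 to 2.86, from 0.85 to 5.60, from 0.08 to 10.28 and from 0 to 5.73 in the same order. Car2, carbonic anhydrase, led the erythroid list with 64.6% of cells, and Hbb-b1, a beta globin, and Cma1, a mast cell chymase, were under 1 TPM in all 96 cells. In cells with no state 4 of 6 erythroid and 3 of 6 mast cell genes that could be called were higher than in Multi-Lin-1. Of 5 stem and multipotent genes that could be called, 3 were lower and 0 higher. Over all genes 5.21% were higher and 12% lower in this comparison. The mean of the primary granule list was 10.10 ± 0.55 in proNeu-1, 8.25 ± 1.18 in IG2, 3.63 ± 2.24 in cells with no state and 3.92 ± 1.39 in Multi-Lin-1 (SD over cells). Of B lymphoid genes 4 of 6, and of T and NK genes Cd3e, Cd3g and Gzma, were under 1 TPM in every cell. Other genes of these lists were present: Cd79b, a B cell receptor component, was detected in 25 of 96 cells and Nkg7, a granule protein of NK cells, in 96.9%. Nkg7 averaged 12.36 ± 0.50 in proNeu-1, 11.33 ± 0.91 in IG2, 8.76 ± 3.81 in cells with no state and 9.41 ± 3.36 in Multi-Lin-1 (log2 scale, SD over cells), higher in proNeu-1 than in Multi-Lin-1 by 2.95. Of 6 stroma and endothelium genes, Cxcl12, Col1a1 and Cdh5 were under 1 TPM in every cell, while Lepr was detected in 91.7%. The part of these cell types in the replication gene differences was not tested.

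Of 86 other genes on the replication lists used here, 79 could be called. The 86 include 13 G1/S regulators, of which 10 could be called, and 7 genes of chromatin assembly at forks. They are thus not all parts of the replication machinery. Against Multi-Lin-1, 47 were higher and 1 lower in proNeu-1, and 39 were higher and 1 lower in IG2, where 35.2% and 31.1% of all genes were higher. After regression the counts were 7 higher and 16 lower in proNeu-1, where 12.6% of all genes lay in either direction, and 6 higher and 6 lower in IG2, against 6.92% and 5.57%. Between proNeu-1 and IG2, 17 were higher and 13 lower, against 13.6% and 10.2% of all genes. After regression 10 were higher and 17 lower there, against 10.8% and 12.9%, so the larger side turned as it did over all genes. In cells with no state 1 was higher and 27 lower than in Multi-Lin-1, against 5.21% and 12% of all genes, and 2 and 17 after regression, against 7.45% and 8.29%.

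The lists below are read against the same background: 35.2% of all genes were higher in proNeu-1 and 31.1% in IG2 than in Multi-Lin-1, and 12.6% and 6.92% after regression on genes detected. Pairs of values give proNeu-1 and then IG2, each minus Multi-Lin-1. Among origin licensing genes, 8 of 11 were higher in proNeu-1 and 6 of 11 in IG2, and 3 and 1 after regression. Cdc6 (2.81 and 1.74) and Cdt1 (2.79 and 1.47), the loaders of the MCM ring, and Orc6 (1.85 and 3.37), an origin recognition subunit, were among them. After regression Cdc6 (1.25 and 0.44) and Cdt1 (1.21 and 0.15) kept their sign, and Orc6 was at -0.49 and 1.43. Helicase activation genes were higher for 6 of 11 in either state, and for 0 and 2 after regression, when 3 and 1 were lower. Examples over all cells were Cdc45 (2.86 and 1.77) and Gins2 (2.48 and 2.18), which join the ring at the fork, with 0.77 and 0.02 and with 0.61 and 0.63 after regression. Cdc7, the kinase that triggers activation, was higher in IG2 than in Multi-Lin-1 (2.21) and lower in proNeu-1 than in IG2 (-2.56), and after regression these differences were 1.12 and -2.78.

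Of polymerase and primase genes, 8 of 12 were higher and 1 lower in proNeu-1 and 6 higher and 1 lower in IG2 than in Multi-Lin-1, with Pold2, a subunit of polymerase delta, at 4.26 and 3.62. After regression 3 were higher and 2 lower in proNeu-1 and 1 higher and 3 lower in IG2, and Pold2 was at 1.22 and 1.09. Pold4, the smallest subunit of that polymerase, was the lower gene in both (-1.86 and -1.44), with -1.85 and -1.44 after regression. Of clamp loader and RPA genes 7 of 10 and 6 of 10 were higher, and 0 and 0 after regression, when 2 and 0 were lower. Of genes for joining Okazaki fragments 5 of 6 and 3 of 6 were higher, and 1 and 0 after regression, when 2 and 0 were lower. Fen1, the flap nuclease, differed by 1.53 and 2.79, and Lig1, DNA ligase 1, by 2.05 and 1.56. After regression Fen1 was at -1.09 and 0.61 and Lig1 at 0.12 and -0.05, so the sign turned for Fen1 in proNeu-1 and for Lig1 in IG2.

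Nucleotide supply genes other than Tyms and Rrm2 were higher for 7 of 9 in proNeu-1 and 6 of 9 in IG2, and for 0 and 2 after regression, when 1 was lower in either state. Tk1, thymidine kinase, differed by 1.96 and 2.97, and Dut, which removes dUTP, by 2.07 and 1.32. After regression Tk1 was at -0.06 and 1.29 and Dut at -0.30 and -0.65. Rrm1, the large subunit that pairs with Rrm2, differed by 0.60 and 0.50, and by -2.15 and -1.79 after regression. Rrm2 was at 3.23 and 3.17, and at -0.05 and 0.45 after regression. In cells with no state Rrm1 was lower than in Multi-Lin-1 by 3.06 on the log2 scale (a difference of -3.06), and the difference was -2.52 after regression. Fork protection genes were called higher for 1 of 3 in either state, and for 0 after regression, when 2 and 0 were lower. Tipin differed by -2.73 and Timeless by -2.16 between cells with no state and Multi-Lin-1, and by -2.06 and -1.96 after regression. Genes of chromatin assembly at forks were higher for 3 of 7 in proNeu-1 and 4 of 7 in IG2 than in Multi-Lin-1. After regression 0 and 0 of them were higher and 2 and 1 lower. G1/S regulators were higher for only 2 of 10 and 1 of 10, below the shares over all genes. After regression 0 and 0 of these regulators were higher and 1 and 0 lower.

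Mitosis genes were set beside the 10 replication genes as a later step of the same cycle. Of 15, 6 were higher and 1 lower in proNeu-1 and 10 were higher and 0 lower in IG2 than in Multi-Lin-1, against 35.2% and 31.1% of all genes higher. After regression 0 were higher and 9 lower in proNeu-1 and 0 higher and 1 lower in IG2, against 12.6% and 5.57% of all genes lower. Between proNeu-1 and IG2, 0 were higher and 5 lower in proNeu-1, against 13.6% and 10.2% of the 8044 genes, and 0 and 8 after regression, against 10.8% and 12.9%. Mki67, a proliferation antigen, differed by -2.0, Ccnb2, cyclin B2, by -1.70, and Tpx2, a spindle assembly factor, by -1.57. In that same comparison Mcm3 and Mcm2 were at 1.83 and 1.66, and Pcna and Tyms at -1.37 and -0.89.

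The 10 genes were related to each other only loosely from cell to cell. Among 45 pairs Spearman rho ran from -0.02 for Mcm3 and Tyms to 0.49 for Pcna and Rrm2, with a median of 0.27 and 44 pairs above 0. After regression on genes detected the median was 0.14 and 37 pairs were above 0. Among the 15 pairs of ring subunits the medians were 0.30 and 0.15. Pcna and Rrm2 were detected together in 54 cells and both missing in 17, and Mcm7 and Pcna (rho 0.46) together in 63 and both missing in 13. The pairs share the same 96 cells and their depth, and in sparse values weak correlations are no finding.

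The genes whose level followed the replication score most closely over the 96 cells were Uhrf1 (Spearman rho 0.73), which guides maintenance DNA methylation at forks, Dut (0.70) and Lig1 (0.64). They were followed by Rrm1 (0.61), Tipin (0.60), Sdf2l1 (0.60), Hells (0.60), a chromatin remodeller, Pold2 (0.60), Cyb5b (0.60) and Nop58 (0.59), a ribosome biogenesis protein. Of these 10 genes 7 are on the replication lists, which hold 79 of the 8034 genes compared. Uhrf1 and Hells are there as genes of chromatin assembly at forks. After regression on genes detected the leading 10 were Uhrf1 (0.65), Dut (0.53), Nop58 (0.49), Lig1 (0.48), Hells (0.44), Cdt1 (0.43), Rrm1 (0.41), Ranbp1 (0.40), Mif (0.40) and Tpi1 (0.40), and 6 genes were in both sets. Of the leading 10 after regression 6 are on the replication lists. Uhrf1 and Dut thus led either way.

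The median rho with the score was 0.36 for the 79 other replication genes, 0.22 for the 15 mitosis genes and 0.16 over all genes. After regression these were 0.14, -0.21 and -0.03. Only Cdk1 (0.17), Top2a (0.08) and Aurkb (0.02) of the mitosis genes were then above 0, and Ccnb2 was at -0.36. Cdk1, the kinase of mitotic entry, thus kept the highest value of that list. Cenpa, the histone of centromeres, had the lowest rho of all 8034 other genes after regression (-0.48) and was named after its value was seen.

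Splicing values, deposited as the fraction of reads at a splicing event that use its named junction, covered 165 events in the 10 genes, of which 100 were annotated as intron retention and 34 as cassette exons. Values in 10 or more cells were present for 155 of them, and the largest number of cells for any event was 62, in Mcm6. In all 155 events the median cell was at 0 or 1, so most cells used 1 form. Junction read counts are not given, so the depth behind each fraction is unknown. In Tyms, retention of intron 2, read at the exon 2 border, had a value in 49 cells with a mean of 0.16 ± 0.31 (SD): 34 cells were at 0, 2 at 1 and 13 between. Its mean was 0.30 in proNeu-1 (6 cells), 0.08 in IG2 (22 cells), 0.05 in cells with no state (9 cells) and 0.30 in Multi-Lin-1 (12 cells), and 0.21 in cells numbered 078 and 0.09 in cells numbered 079. The other border of the same intron gave 0.15 ± 0.31, and both borders share their reads' source. The main junction joins exon 2 to exon 4. Within its span the border of exon 3 and intron 3 was at 0 in all 45 cells with a value. Retention of the whole span was therefore not shown. An alternative 3′ splice site of Tyms exon 8 was used at 0.08 ± 0.22 in 51 cells, with 41 cells at 0. A spread of like size was seen elsewhere: use of the Mcm4 junction from exon 13 to exon 14 was 0.88 ± 0.31 in 41 cells, with 35 cells at 1, 3 at 0 and 3 between. Pcna introns had means of at most 0.043 in 51 to 57 cells.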

How the data were processed

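Expression values of the 96 labelled cells are log2 values in the authors' deposited table; undone as powers of 2 less 1 they total 1000000 per cell and were read as log2(TPM + 1). Each deposited splicing value is a fraction between 0 and 1 and is only described. State names are the authors' and were read from their annotation. STAR, RSEM, Bowtie2 and the builds mm10 and mm9 are named per the submitters' processing notes; their versions and roles are not given in the sources used here. The splicing table holds 1142 columns, and the state annotation 511 entries, without a matching label, all left out here. Reads per cell are not given, so depth is unknown, and reads are PCR copies without molecular identifiers. A value of 0 can be a failed estimate.

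Each sample is 1 cell and no animal is named, so no test was run. Detection was a TPM of 1 or more, calls were made in genes detected in at least 10% of cells, and a difference was called at 1 in mean log2(TPM + 1). Intervals given for shares are exact Clopper-Pearson 95% intervals. Genes detected was taken into account by a linear regression of every gene over the 96 cells, with no term for state, or by a window of 3000 to 4500 genes. The highest Pearson r between any pair of cells was 0.685, 0 pairs were identical, and doublets were not called, for want of counts. Coordinates are GRCm38, and the junctions of all 165 splicing events lie inside these gene bounds. The 10 genes and the gene lists were chosen with earlier results of these data known, so the patterns are not independent support for those results. Named genes are the 10 genes, from each list the genes with the highest and lowest share of cells and up to 5 with the largest differences, the 10 genes most like the replication score before and after regression, and splicing events. The scripts ran under SciPy 1.17.1, pandas 2.3.3, NumPy 2.4.6, matplotlib 3.10.9 and Python 3.11.15 and were tested on simulated data.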

Additional observations from a re-analysis of the deposited data

How the results depend on the processing

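At a detection level of 30 TPM the median number of the 10 genes per cell was 7 in proNeu-1, 2 in cells with no state and 4.5 in Multi-Lin-1. Between proNeu-1 and IG2 the score difference was -0.90 with cells numbered 078 only, 1.51 with cells numbered 079 only, 0.12 with log2(TPM + 10), 0.029 with cells of 3000 to 4500 genes and -0.056 after regression on genes detected. In that comparison the genes higher were 0 with 078 (16.1% of all 8044 genes), 6 with 079 (24.1%) and 1 with log2(TPM + 10) (4.33%). The genes lower were 4 (20.4%), 0 (13.6%) and 0 (2.36%) under the same settings, 2 after regression (12.9%) and 2 by medians (8.83%).

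Between proNeu-1 and Multi-Lin-1 the score difference was 0.38 with 078, 2.82 with 079, 1.03 with log2(TPM + 10), 1.01 in the window and -0.30 after regression, and the genes higher were 3 with 078 (32.4% of all genes), 4 in the window (27.2%) and 0 after regression (12.6%). Between IG2 and Multi-Lin-1 the score difference was 0.92 with log2(TPM + 10) and -0.24 after regression, and the genes higher were 4 in the window (21.7%) and 0 after regression (6.92%). Between cells with no state and Multi-Lin-1 the score difference was -2.08 with 078, -0.47 with 079, -0.70 with log2(TPM + 10), 0.11 in the window and -0.78 after regression, and the genes lower were 10 with 078 (20.4%), 2 with 079 (17.1%), 3 with log2(TPM + 10) (3.32%) and 2 in the window (20.2%).

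The relation of the score with genes detected kept its sign, with rho between 0.48 and 0.89 under all settings tried. The cause of these shifts was not tested. No paired analysis was possible because all cells belong to 1 group. TPM without counts and 12 to 31 cells per state limit the precision.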
